A study of Homo sapiens with 15 samples.

Results

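The comparison of young MRC-5 fibroblasts carrying a TRF2 lentivirus with young fibroblasts carrying the empty vector rested on 6 of the 15 libraries of the series. MRC-5 is a line of diploid fibroblasts from human fetal lung that divides a limited number of times in culture. All 6 cultures were at population doubling 30, grew in 5% oxygen, were infected at a multiplicity of infection of 1 and received a control siRNA (siCtrl) 2 days after infection, and RNA was taken 4 days after the siRNA. The 3 young_empty libraries came from cells with pWPIR-GFP and the 3 young_TRF2 libraries from cells with pWPIR-GFP-TRF2, so GFP, the virus and the control siRNA were common to both groups. The other 9 libraries were young cells with the empty vector and an siRNA against LMNB1 (3), senescent cells with the empty vector at population doubling 71 (3) and senescent cells with TRF2 at population doubling 75 (3). These 9 cultures also grew in 5% oxygen, and the column names of the 6 senescent libraries also hold siCtrl. The labels mark the 6 senescent libraries as a reanalysis of earlier samples and the young libraries not, so senescence and the time or batch of the experiment cannot be told apart. The question was which genes moved when TRF2 was raised in cells far from senescence.

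TRF2, encoded by TERF2, is a subunit of shelterin, the protein complex that covers the TTAGGG repeats at chromosome ends. It holds the end in a closed loop and keeps it from being read as a DNA break and joined to another chromosome. TRF2 has also been found at repeats inside chromosomes and at gene promoters, and its protein level declines as fibroblasts approach senescence.

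The libraries held 26946291 to 37341181 counts each. All 16 fibroblast markers were tested, whereas 3 of 8 immune cell markers were at 0 in all 6 libraries and 7 of 8 had at most 10 counts in any of them. The epithelial keratins KRT5 and KRT14 had 209 and 111 counts in replicate 1 of the empty vector and 0 in the other 5 libraries, KRT18 had 712 to 931 counts in all 6, and the endothelial marker TEK 751 to 1305. The part of these reads in the results was not tested. Replicates of the empty vector correlated across genes at 0.989 to 0.991 (Pearson's r of log2 CPM, counts scaled to the library total), replicates of TRF2 at 0.988 to 0.991, and pairs across the groups at 0.986 to 0.990. On a principal component analysis of the 6 libraries, the first component held 29.3% of the variance and separated the groups, with empty vector scores of -23.3, -15.7 and -19.5 and TRF2 scores of 10.1, 37.7 and 10.7. On the second component (21.0%) the empty vector libraries scored 27.4, -1.17 and -10.3 and the TRF2 libraries -18.5, 21.4 and -18.7. Replicate 2 of TRF2 therefore stood apart in its group on both components, and replicate 1 of the empty vector on the second. Values without replicate 2 of TRF2 are given below for TERF2, the matrix genes, STAT2, C1S, MKI67 and the main gene lists.

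TERF2 was high in every library that received the transgene. It had 771, 821 and 705 normalized counts in the 3 young empty vector libraries and 4127, 9882 and 4798 in the 3 young TRF2 libraries, where a normalized count is a count scaled to a common effective library size. The groups did not overlap, and replicate 2 of TRF2, which stood apart in its group, had the highest level. In CPM these were 24.0, 25.5 and 21.9 with the empty vector and 128, 307 and 149 with TRF2. The mean rose from 766 ± 58.3 to 6269 ± 3150 (SD, n = 3), a fitted log2 fold change of 3.03 (95% interval 2.51 to 3.56, edgeR adjusted p = 2.3e-05), or 8.18-fold. Without replicate 2 of TRF2 the log2 fold change was 2.54. By rank among the 15799 genes tested, TERF2 moved from between 6311.5 and 6773.5 with the empty vector to between 559 and 1610 with TRF2. The gene lies on the minus strand of chromosome 16 at 69355567 to 69408571 (GRCh38). Its counts add transcripts of the vector and of the chromosome, which cannot be told apart here.

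**Figure D1:**
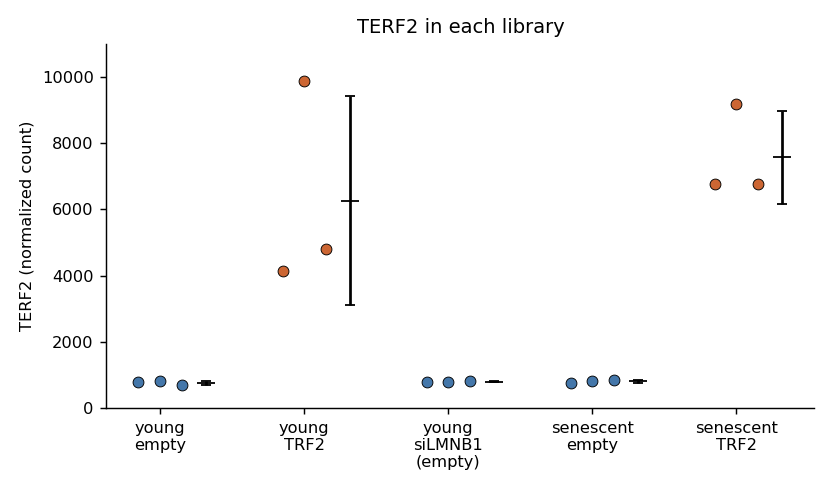
Normalized TERF2 count in each of the 15 libraries, with the mean and SD of each group of 3 to the right of its points. The young TRF2 libraries lay at 4127, 9882 and 4798 and the senescent TRF2 libraries at 6761, 9191 and 6761, above all 9 libraries without the transgene, which lay between 705 and 837.

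The other 5 shelterin genes did not pass the test. TERF2IP (RAP1), which is held at telomeres by TRF2, had 2654, 2726 and 2519 normalized counts with the empty vector and 2750.5, 2803 and 2636 with TRF2 (log2 fold change 0.05, 95% interval -0.10 to 0.20). TERF1, the other subunit that binds double-stranded repeats, differed by 0.02 (interval -0.19 to 0.23) and TINF2, which bridges TERF1 and TRF2, by 0.16 (interval -0.05 to 0.38). POT1, which binds the single-stranded overhang, differed by -0.18 (interval -0.42 to 0.05), with its 3 TRF2 libraries all below the 3 empty vector libraries. ACD (TPP1), the partner of POT1, differed by -0.26 (interval -0.59 to 0.06). Each interval excluded a 2-fold change, and none of these 5 genes was called by edgeR with the 9 young libraries alone.

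With all 15 libraries in 1 model, edgeR's quasi-likelihood test called 28 of 15799 genes (0.177%) at a Benjamini-Hochberg adjusted p below 0.05, 24 higher with TRF2 (0.152%) and 4 lower (0.0253%). In all 28 the 3 TRF2 libraries lay on 1 side of the 3 empty vector libraries, which was so for 11.7% of all genes tested on the higher side and 12% on the lower side. TERF2 apart, the genes called higher had log2 fold changes of 0.59 to 1.57. An unadjusted p below 0.05 was given to 1526 genes.

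The count depended on which libraries entered the model, which set the estimate of spread, the genes tested and the scaling together. The median within-group SD of log2 CPM was 0.098 for the young empty vector group and 0.140 for the young TRF2 group, and 0.302 for the senescent empty vector group, which enters the model of 15 libraries. With the 9 young libraries alone 724 of 14987 genes were called (4.83%), 378 higher (2.52%) and 346 lower (2.31%), and with the 6 libraries compared alone 474 of 14357 (3.3%), 296 higher (2.06%) and 178 lower (1.24%). All 28 genes were called in both of these fits. In the model of 15 libraries, leaving out replicate 1, 2 or 3 of the empty vector left 9, 1 and 2 genes called, and leaving out replicate 1, 2 or 3 of TRF2 left 1, 1 and 18, TERF2 among them each time. With the 9 young libraries, leaving out 1 of the 6 compared left between 236 and 762 called, and between 26 and 28 of the 28 genes stayed among them. For the 28 genes the fitted log2 fold changes of the fits with 15 and with 9 libraries differed by at most 0.017. Gene groups are described below with the counts of both fits.

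**Figure D2:**
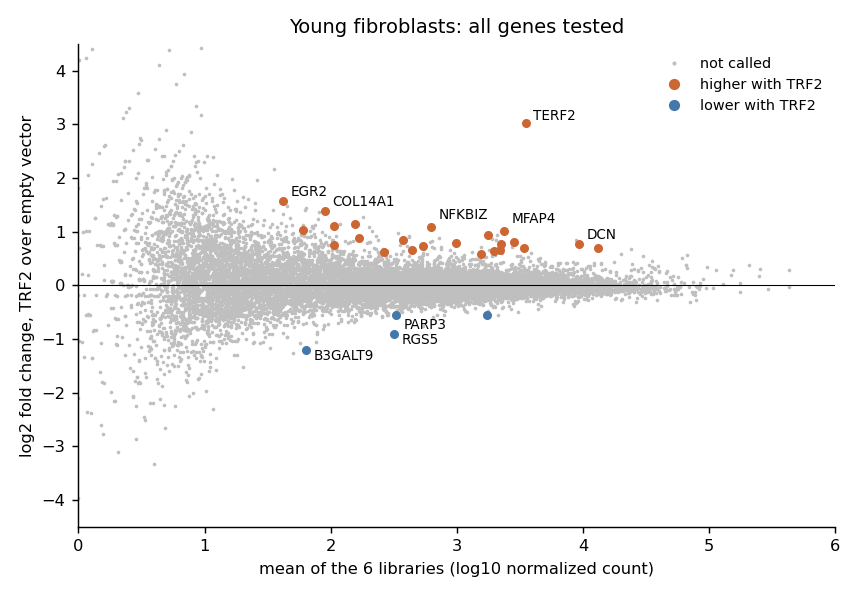
Log2 fold change of TRF2 over empty vector in young cells against the mean of the 6 libraries (log10 normalized count) for the genes tested, of which 90 lie outside the axes. Coloured points are the 28 genes called with all 15 libraries, 24 higher and 4 lower, and TERF2 lies highest of the genes called, at 3.03.

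The genes called higher are described by their known roles, a grouping made after the calls were seen and not tested, and 5 of them are known from inflammatory signalling. TNFAIP2, a gene induced by tumour necrosis factor, had 1561, 1523 and 1514 normalized counts with the empty vector and 2471, 2565 and 2117 with TRF2 (log2 fold change 0.64 ± 0.09 SE, edgeR adjusted p = 0.011). ICAM1, an adhesion molecule that binds leukocytes, went from 762, 728 and 693 to 1304, 1308 and 1152 (0.79 ± 0.11). NFKBIZ, a nuclear partner of the transcription factor NF-kB, went from 389.6, 444 and 363 to 884, 1012 and 640.4 (1.08 ± 0.17). The lowest TRF2 library was replicate 3 in all 3 genes. ZFP36, which binds AU-rich messages and speeds their decay, went from 1232, 1311 and 1086 to 2267, 2647 and 2027 (0.94 ± 0.14). BDKRB2, the receptor for bradykinin, went from 2829, 2564 and 2451 to 4057, 5006 and 3588 (0.69 ± 0.11). Of the exon length of ICAM1, 25.4% is shared with another annotated gene, so part of its count may be that gene's.

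Promoters of 20 of the 28 genes were found among the RefSeq promoter sequences of GRCh38, and the 250 bases before each start were searched on both strands for a few motifs. The NF-kB motif GGAANTTCC was present before ICAM1 and NFKBIZ, in 2 of 20 genes, against 0.996% of all 27305 genes with a promoter. These 2 windows are shown because both genes are called and known for NF-kB, with the motif in capitals, the letters running 5′ to 3′ on the plus strand, which is the strand of both genes, and windows trimmed where annotated exons begin.
NFKBIZ, chr3:101827757-101827786, a stretch that also lies in an annotated NXPE3 exon: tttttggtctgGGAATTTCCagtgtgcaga
ICAM1, chr19:10270870-10271092: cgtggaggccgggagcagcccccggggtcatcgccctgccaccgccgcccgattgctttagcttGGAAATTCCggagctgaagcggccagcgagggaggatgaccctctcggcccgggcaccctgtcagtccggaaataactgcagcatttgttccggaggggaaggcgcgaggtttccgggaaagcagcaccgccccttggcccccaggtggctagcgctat
The motif began 222 bases before the start in NFKBIZ and 186 before it in ICAM1. A match of letters is no evidence of binding.

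Another 3 of the genes called higher are known as targets of FOXO factors or for following metabolic state. DEPP1, a FOXO target, had 111, 98.3 and 79.1 normalized counts with the empty vector and 196, 232 and 215 with TRF2 (log2 fold change 1.15 ± 0.18, edgeR adjusted p = 0.011). TXNIP, which binds and inhibits thioredoxin and follows glucose supply, went from 1769.5, 1682 and 1661 to 2730.4, 2778 and 2550.4 (0.66 ± 0.12). FBXO32, the muscle atrophy ubiquitin ligase and also a FOXO target, went from 246, 247 and 315 to 533, 466 and 451 (0.85 ± 0.13). All 3 genes were higher in every TRF2 library than in any empty vector library. For DEPP1, 23.3% of exon length is shared with RASSF4.

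The FOXO motif GTAAACA was present before DEPP1 and TXNIP, in 2 of 20 genes, against 3.66% of all genes with a promoter. Both windows are shown because they carry that motif, in capitals, read 5′ to 3′ on the minus strand of GRCh38, the strand of both genes.
DEPP1, chr10:44978810-44979059: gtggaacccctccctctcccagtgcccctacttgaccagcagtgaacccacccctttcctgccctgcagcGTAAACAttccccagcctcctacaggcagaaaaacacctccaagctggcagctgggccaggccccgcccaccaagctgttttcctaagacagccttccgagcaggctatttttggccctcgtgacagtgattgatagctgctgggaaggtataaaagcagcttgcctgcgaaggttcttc
TXNIP, chr1:145996580-145996829: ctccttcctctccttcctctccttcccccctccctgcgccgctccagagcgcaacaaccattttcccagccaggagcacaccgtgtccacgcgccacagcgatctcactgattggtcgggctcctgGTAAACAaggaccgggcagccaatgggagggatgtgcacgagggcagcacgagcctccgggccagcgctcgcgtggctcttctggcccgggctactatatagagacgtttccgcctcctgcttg
The motif began 180 bases before the start in DEPP1 and 124 before it in TXNIP.

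Another 6 of the genes called higher encode matrix proteins, whereas of the 22 tested genes of the matrix and myofibroblast list POSTN was the 1 called. DCN (decorin) had 7685, 6551 and 6281 normalized counts with the empty vector and 10811, 14086 and 10129 with TRF2 (log2 fold change 0.77 ± 0.14, edgeR adjusted p = 0.026). LUM (lumican) went from 1720.1, 1667 and 1596 to 2963, 3067 and 2483 (0.77 ± 0.15). PODN (podocan) went from 125, 117 and 108 to 216, 239 and 195 (0.89 ± 0.14). These 3 are small leucine-rich proteoglycans, which bind collagen fibrils, and in each of them replicate 2 of TRF2 was the highest library. MFAP4, a protein of microfibrils, went from 1709, 1542 and 1450.1 to 3200.2, 3566 and 2729.9 (1.01 ± 0.16). POSTN (periostin), a matrix protein of remodelling tissue, went from 2288, 2023 and 1914 to 3547, 4512 and 2879 (0.81 ± 0.14). COL14A1, a collagen found on the surface of fibrils, went from 56.1, 48.2 and 45.5 to 107, 151 and 135 (1.39 ± 0.23). Replicate 2 of TRF2 was again the highest library in these 3 genes. Without it the log2 fold changes were 0.62 for DCN, 0.71 for LUM, 0.82 for PODN, 0.92 for MFAP4, 0.63 for POSTN and 1.27 for COL14A1. None of the 6 was then called by edgeR with the remaining 14 libraries (adjusted p 0.072 to 0.24), and all 6 were called with the remaining 8 young libraries (highest adjusted p 0.0012). It was the highest TRF2 library in 16 of the 24 genes called higher and in 1007 of the 1842 genes whose TRF2 libraries all lay above the empty vector libraries. LTBP4, a binding protein of latent TGF-beta, lay just past the threshold at 0.71 (adjusted p = 0.055), as did TGFBI at 0.37 (adjusted p = 0.062). The microRNA gene MIR616 was the third, with only 1, 2 and 1 counts with the empty vector and 17, 25 and 8 with TRF2 (3.34 ± 0.67, adjusted p = 0.062). LTBP4 (edgeR adjusted p = 6.8e-05), TGFBI (0.0010) and MIR616 (0.016) were called with the 9 young libraries.

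The remaining genes called higher had varied roles. EGR2, a transcription factor induced within minutes of growth factor stimulation, had 16.8, 17.0 and 30.0 normalized counts with the empty vector and 64.7, 50.7 and 72.6 with TRF2 (log2 fold change 1.57 ± 0.29, edgeR adjusted p = 0.038), the largest value after TERF2 but at low counts. JUP (plakoglobin), a junction protein related to beta-catenin, rose by 0.59 on the log2 scale. SLC43A2, a transporter of neutral amino acids, had 201, 204 and 223 with the empty vector and 318, 319 and 325 with TRF2 (0.61 ± 0.11). FAM43A, with little known of its function, rose by 0.74 and SIPA1L2, a regulator of the small GTPase Rap, by 0.66. ABCA7, a lipid transporter, rose by 1.03 from means of 39.7 to 81.9. APC2, a relative of the tumour suppressor APC, went from 88.7, 70.9 and 76.7 to 139, 125 and 132 (0.75 ± 0.12). The lncRNA ENSG00000267317 lies inside APC2 on the opposite strand at 1457670 to 1458580 of chromosome 19 and rose by 1.12. It shares 42.9% of its length with APC2 exons, so without knowing whether counting used strand the reads of both cannot be told apart. ENSG00000112096, which the annotation used here does not name, went from 10608, 9982 and 9754 to 18674, 17014 and 13605 (0.70 ± 0.11) and held the most counts of the genes called.

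**Figure D3:**
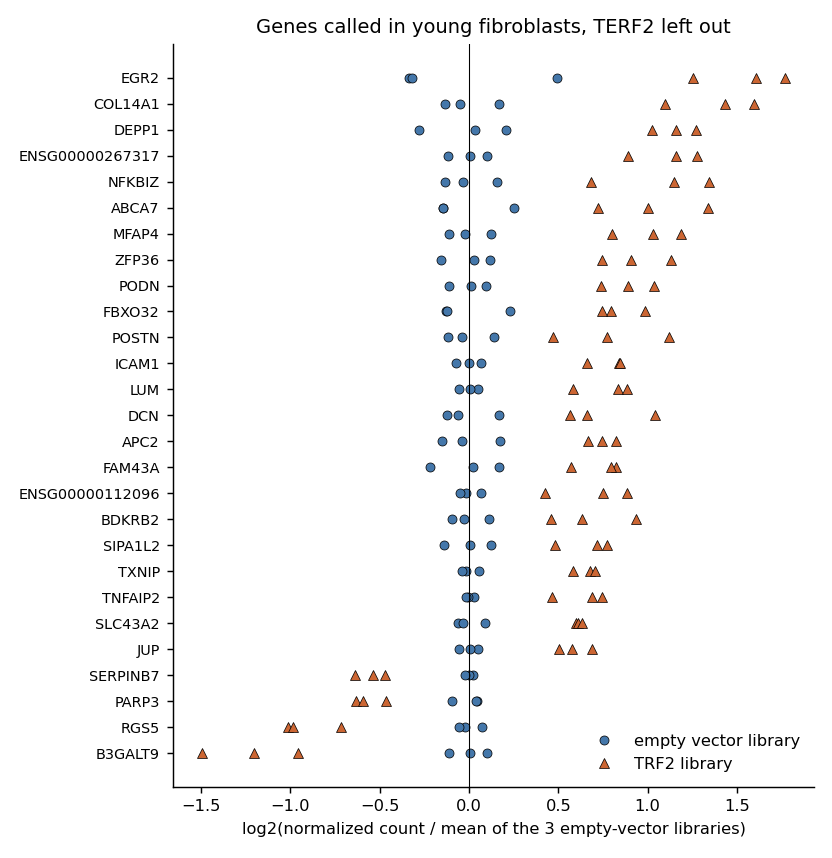
Log2 ratio of each young library to the mean of the 3 empty vector libraries for the 27 genes called besides TERF2, ordered by fitted log2 fold change. Circles are empty vector libraries and triangles TRF2 libraries, and in every gene the triangles lie on 1 side of the circles.

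Of the 4 genes called lower, RGS5, which shuts off G protein signalling and is known from pericytes, had 432, 404 and 395 normalized counts with the empty vector and 203, 207 and 250.1 with TRF2 (log2 fold change -0.90 ± 0.14, edgeR adjusted p = 0.011). B3GALT9, named for its kinship with galactosyltransferases, went from 88.7, 94.6 and 81.5 to 45.5, 38.2 and 31.3 (-1.20 ± 0.20). SERPINB7, an intracellular protease inhibitor, went from 2102, 2069 and 2034 to 1329.8, 1423 and 1490.5 (-0.55 ± 0.09). PARP3, an ADP-ribosyltransferase of double-strand break repair, went from 404, 367 and 403 to 283, 252 and 259 (-0.56 ± 0.11). In all 4 genes the highest TRF2 library lay below the lowest empty vector library. Just past the threshold lay CDC25A, a phosphatase that drives entry into S phase, at -0.54 (adjusted p = 0.077), PITPNM3 at -0.64 (0.078) and HHAT at -0.52 (0.093). Some genes not called with all 15 libraries had a mean of at least 100 normalized counts and groups that did not overlap. Among these VGF, a secreted neuropeptide precursor, had the largest difference on the lower side at -0.77 (edgeR adjusted p = 0.20). On the higher side it was HES1, a target of Notch, at 1.27 (adjusted p = 0.16). VGF (edgeR adjusted p = 0.00048) and HES1 (0.00044) were called with the 9 young libraries. So were CDC25A (0.00041), PITPNM3 (0.016) and HHAT (0.011).

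TTAGGG, the unit of the repeats that TRF2 binds, was present in the 250 bases before 1 of the 20 genes, RGS5. Of all genes with a promoter, 9.65% had it. The longer form TTAGGGTTA was present before none of the 20 genes, against 0.0732%. The RGS5 window is shown, with that unit in capitals, read 5′ to 3′ on the minus strand of GRCh38, the strand of the gene.
RGS5, chr1:163202917-163203166: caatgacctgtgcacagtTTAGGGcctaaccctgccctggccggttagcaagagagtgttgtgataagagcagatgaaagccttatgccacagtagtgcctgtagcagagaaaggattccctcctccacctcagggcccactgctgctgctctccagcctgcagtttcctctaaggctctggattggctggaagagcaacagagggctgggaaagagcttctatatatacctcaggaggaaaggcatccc
The unit began 232 bases before the start, and a single unit is no evidence of binding by TRF2. The AP-1 motif TGANTCA was present before POSTN, SLC43A2 and SERPINB7, in 3 of 20 genes, against 8.06% of all genes.

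Genes near chromosome ends were examined because TRF2 binds there. Of 946 protein-coding genes and pseudogenes tested within 2 Mb of an end, 3 were called higher and none lower by edgeR with all 15 libraries, and of 13010 elsewhere, 19 were called higher and 4 lower. Near ends 77 were higher (8.14%) and 19 lower (2.01%) at an unadjusted p below 0.05, against 6.0% and 3.66% of all genes tested. The 3 were APC2 at 1.45 Mb and ABCA7 at 1.04 Mb from the end of 19p and SLC43A2 at 1.57 Mb from the end of 17p. The median log2 fold change was 0.03 within 2 Mb and -0.0018 elsewhere. With the 9 young libraries 26 of 902 were higher and 10 lower near ends, and 327 of 12539 were higher and 325 lower elsewhere. The shares near ends were thus 2.88% higher, against 2.52% of all genes, and 1.11% lower, against 2.31%, and the difference from all genes was not tested. Among 5 tested genes known for regulation by looping from a telomere, none was called with 15 libraries (1 at an unadjusted p below 0.05). C1S (3108, 2969 and 2909.7 with the empty vector against 3659, 5855 and 3537 with TRF2) and ISG15 were called higher with 9. By its name ISG15 is also an interferon-stimulated gene, a class described below. In C1S replicate 2 of TRF2 was far above the other libraries, and without it the log2 fold change fell from 0.52 to 0.27 (edgeR adjusted p = 0.010 with the young libraries). With the young libraries neither gene was called without replicate 2 or without replicate 3 of the empty vector. C1S was also not called without replicate 1 of the empty vector (edgeR adjusted p = 0.072). The same held for ISG15 without replicate 1 (0.13) or replicate 3 (0.055) of TRF2. The unadjusted p was below 0.05 in all of these fits.

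None of the 16 tested neighbours within 500 kb of TERF2 was called by edgeR with all 15 libraries, and their median was -0.05. At an unadjusted p below 0.05, 1 was higher and 2 lower, against 6.0% and 3.66% of all genes. TANGO6 was the 1 neighbour called with the 9 young libraries, with 861, 858 and 858 normalized counts with the empty vector and 725, 603 and 713 with TRF2 (-0.35, edgeR adjusted p = 0.016). COG8 had the largest difference on the higher side at 0.64 (adjusted p = 0.20).

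Genes of the cell cycle lay lower with TRF2 by small amounts. The 30 proliferation genes had a median log2 fold change of -0.25, against 0.01 for all genes, and in 23 of them the TRF2 libraries all lay below the empty vector libraries, which was so for 12% of all genes. None was called by edgeR with all 15 libraries, although 15 had an unadjusted p below 0.05, all lower, against 3.66% of all genes. With the 9 young libraries 15 of 30 were called lower, against 2.31%. MCM7, a subunit of the replicative helicase, had 4884, 4948 and 4918 normalized counts with the empty vector and 3736, 3745 and 4063 with TRF2 (-0.37 ± 0.05, edgeR adjusted p = 0.00066 with 9 libraries). RRM2, the small subunit of ribonucleotide reductase, went from 5459, 5292 and 5162 to 4157, 3665 and 4321 (-0.40 ± 0.06). CDK1, the mitotic kinase, went from 1515, 1525 and 1529 to 1221, 1223 and 1257 (-0.32 ± 0.06). The log2 fold change was positive in 3 of the 30 genes, at most 0.42, and MKI67 was 1 of these. MKI67 had 1407, 3569 and 1608 in the TRF2 libraries against 2194, 1976 and 1769. Without replicate 2 of TRF2 its log2 difference of 0.13 became -0.39 (edgeR adjusted p = 0.044 with the young libraries). The list kept 14 genes called lower without that library and between 3 and 14 without any 1 of the 6, the fewest without replicate 2 of the empty vector. CDKN1A (p21), an inhibitor of cyclin-dependent kinases, differed by 0.16 without passing either test.

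Interferon-stimulated genes lay higher. The 28 tested members had a median log2 fold change of 0.56, 26 of them positive, and in 14 the TRF2 libraries all lay above the empty vector libraries, against 11.7% of all genes. None was called by edgeR with all 15 libraries, and 15 were higher at an unadjusted p below 0.05, against 6.0% of all genes. With the 9 young libraries 12 were called higher, against 2.52%. STAT2, which carries the interferon signal to the nucleus, had 2553, 2436 and 2257 normalized counts with the empty vector and 3288, 4334 and 3018 with TRF2 (0.54 ± 0.09, edgeR adjusted p = 0.0031 with 9 libraries), and differed by 0.39 without replicate 2 of TRF2. IFITM1, which blocks viral entry, went from 166, 138 and 119 to 251, 248 and 236 (0.78 ± 0.14). IFIT2 and IFIT3 were higher by 0.57 and 0.43, and IFI6 by 0.61. The summed level of the list was 18278 to 20899 with the empty vector and 22079.6 to 27433 with TRF2. Both groups carried a lentivirus at the same stated multiplicity of infection. The list had between 2 and 14 genes called higher when 1 of the 6 libraries was left out, 11 without replicate 2 of TRF2, 2 without replicate 2 of the empty vector and 3 without its replicate 3.

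Secretory and immediate early genes were also higher in part. Of 25 secretory phenotype genes, with a median of 0.36, none was called by edgeR with all 15 libraries. At an unadjusted p below 0.05, 11 were higher and 1 lower, against 6.0% and 3.66% of all genes. With the 9 young libraries 12 were called higher and 1 lower, against 2.52% and 2.31%. IL6 had 93.2, 60.5 and 68.3 normalized counts with the empty vector and 146, 146 and 104 with TRF2 (0.83 ± 0.20, edgeR adjusted p = 0.020 with 9 libraries). CXCL8, a chemokine for neutrophils, went from 376, 632 and 522 to 1238, 824 and 775 (0.87 ± 0.17). PLAT, tissue plasminogen activator, and SERPINE2, an inhibitor of such proteases, were each higher by 0.40. Of 19 immediate early genes, with a median of 0.43, EGR2 was called with 15 libraries and 9 with the 9 young libraries, all higher. Of all genes, 0.152% and 2.52% were called higher in these fits. In 13 of the 19 the TRF2 libraries all lay above the empty vector libraries, against 11.7% of all genes. EGR1 went from 5212, 7791 and 5736 to 10977, 13940 and 8930.1 (0.84 ± 0.14) and FOS from 1630.3, 1654 and 975 to 3128, 2844 and 2222 (0.93 ± 0.16). With 1 of the 6 libraries left out, between 6 and 13 secretory genes and between 7 and 11 immediate early genes were called higher. The counts were 13 and 10 without replicate 2 of TRF2 and 6 and 7, the fewest, without replicate 3 of the empty vector.

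Of the 16 fibroblast markers, with a median of 0.24, DCN and LUM were called with all 15 libraries and 6 with the 9 young libraries, all higher. The log2 fold change was positive in 12 markers and negative in 4, the lowest at -0.27. In 1 marker the TRF2 libraries all lay below the empty vector libraries, and in 9 they all lay above. Of all genes, 0.152% and 2.52% were called higher in these fits. COL3A1, a fibrillar collagen, had 51884, 50557 and 47067 normalized counts with the empty vector and 67797, 81182 and 64895 with TRF2 (0.50 ± 0.07, edgeR adjusted p = 0.00066 with 9 libraries). Of 22 matrix and myofibroblast genes, POSTN was called with 15 libraries and 6 were called higher with 9, with a median of 0.13. Of 25 targets of p53, none was called by edgeR with 15 libraries (6 higher at an unadjusted p below 0.05) and 5 were called higher with 9, against 6.0% and 2.52% of all genes, among them BTG2, which slows proliferation, at 0.45 and TP53INP1, which promotes cell death, at 0.53. Of 23 genes of amino acid and endoplasmic reticulum stress, none was called with 15 libraries (7 higher at an unadjusted p below 0.05) and 8 were called higher with 9. Leaving out 1 of the 6 libraries gave 3 to 8 fibroblast markers, 2 to 7 matrix genes, 3 to 8 targets of p53 and 0 to 9 stress genes called higher with the young libraries, and leaving out replicate 2 of TRF2 gave 7, 7, 8 and 9. The fewest were 3, 2, 3 and 0 without replicate 3 of the empty vector, where edgeR gave 11 stress genes higher at an unadjusted p below 0.05.

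Other lists held few calls. With all 15 libraries edgeR called none of 26 TRF2 partners and telomere maintenance genes (median -0.05, 1 lower at an unadjusted p below 0.05), 20 DNA damage signalling genes (median -0.08, 2 lower), 22 nuclear lamina and heterochromatin genes (median -0.06, 3 lower), 26 cholesterol and fatty acid synthesis genes (median -0.01, 1 higher and 1 lower), 23 hypoxia and glycolysis genes (median -0.01, 1 higher and 2 lower) or 9 genes linked with TRF2 outside telomeres (median 0.12, 0 at that p). With the 9 young libraries the called members were 0, 1 lower, 2 lower, 1 lower, 1 higher with 2 lower, and 1 higher. Of all genes, 2.52% were called higher and 2.31% lower with these libraries. With all 15, 6.0% were higher and 3.66% lower at an unadjusted p below 0.05. Epithelial, endothelial and immune cell markers had 5, 4 and 2 genes tested and none called in either fit. DESeq2's Wald test with 15 libraries, which called more genes in all, gave 5 proliferation genes lower, 2 interferon-stimulated genes higher, 5 secretory genes higher and 1 lower, 1 target of p53 higher and 1 hypoxia gene higher, and called none in the other lists without an edgeR call. EZH2, the histone methyltransferase of Polycomb, was among the 2 chromatin genes, at -0.38 (edgeR adjusted p = 0.018 with 9 libraries).

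Mitochondrially encoded mRNAs had a median of 0.46 over 13 genes, but their groups overlapped in 12. Their share of all counts was 1.62%, 1.71% and 2.52% with the empty vector and 2.75%, 2.06% and 2.73% with TRF2, so replicate 3 of the empty vector was above replicate 2 of TRF2. None was called by edgeR with all 15 libraries, with 4 higher at an unadjusted p below 0.05, against 6.0% of all genes. With the 9 young libraries 4 were called, all higher, against 2.52%. That number was 12 without replicate 2 of TRF2 and as few as 1 without another library. The part of this share in the other results was not tested.

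**Figure D4:**
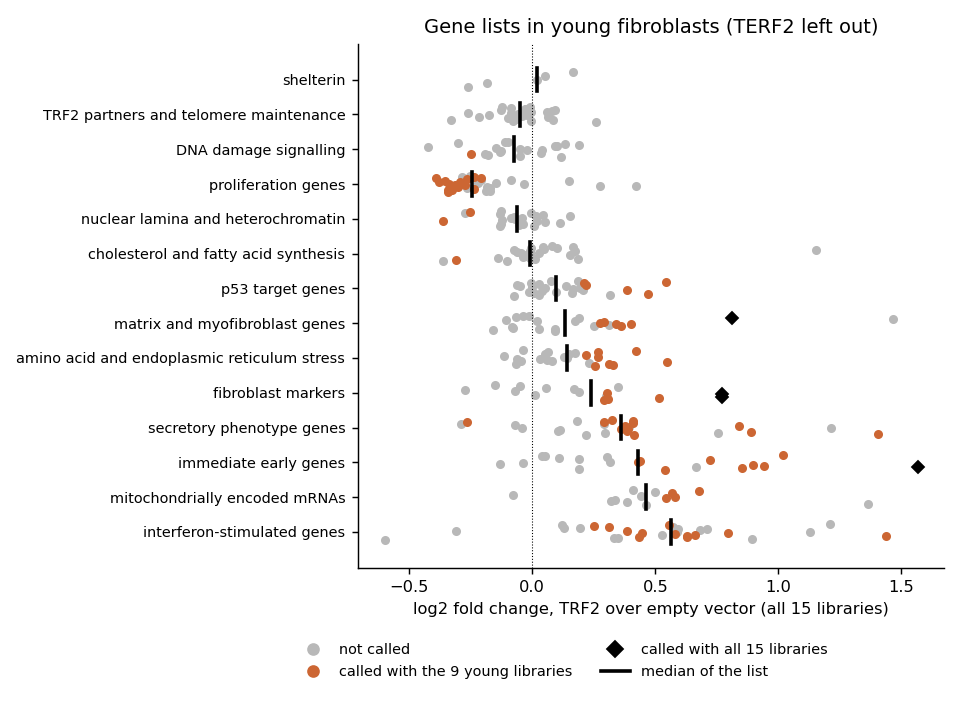
Log2 fold change of TRF2 over empty vector in young cells (fit of 15 libraries) for the tested members of 14 lists, TERF2 left out. Bars are medians, diamonds genes called with all 15 libraries and orange circles genes called only with the 9 young libraries, and the medians run from -0.25 for proliferation genes to 0.56 for interferon-stimulated genes.

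The same transgene was compared in senescent cells, where the TRF2 and empty vector groups also differed by 4 population doublings. In the study these cells carried the TRF2 vector over many population doublings before they senesced, whereas the young cells had it for days. Length of TRF2 expression and senescence therefore cannot be told apart in the comparison of responses. TERF2 itself had 750, 825 and 837 normalized counts in senescent empty vector libraries and 6761, 9191 and 6761 with TRF2, a log2 fold change of 3.23, and the difference from young cells was 0.20 (edgeR adjusted p = 0.79). In senescent cells 1782 of 15799 genes were called (11.3%), 770 higher (4.87%) and 1012 lower (6.41%). The senescent comparison shares no library with the young one. Of the 28 genes called in young cells, 22 had the same sign there and 12 were called, 9 higher and 3 lower. TERF2, which the vector itself carries, is counted in the 28, the 22, the 12 and the 9. The share of all genes with the same sign in both comparisons was not counted. DCN and LUM rose in senescent cells by 0.97 and 1.00, MFAP4 by 0.74, and SERPINB7, PARP3 and B3GALT9 fell by 0.92, 0.83 and 1.03. RGS5 differed by -0.39 there without passing (adjusted p = 0.064).

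The difference between the responses was tested by an interaction term, which called 179 genes (1.13%), 28 with a more positive response in senescent cells (0.177%) and 151 with a more negative one (0.956%). It called 6 of the 28 genes, all with a response in young cells that was near 0 or of the other sign in senescent cells. The 28 were chosen by their young response, which enters the interaction, so their share is not comparable with that of all genes. NFKBIZ had 1.08 in young and -0.11 in senescent cells (edgeR adjusted p of the difference = 0.030), TNFAIP2 0.64 and 0.01 (0.027), BDKRB2 0.69 and -0.0047 (0.039) and FAM43A 0.74 and -0.01 (0.034). EGR2 had 1.57 and -0.80 (0.034) and ENSG00000112096 0.70 and -0.11 (0.027). Among the lists, the interaction called 6 of 28 interferon-stimulated genes, whose median was 0.56 in young and -0.78 in senescent libraries. It called 7 of 25 secretory genes (medians 0.36 and -0.55) and 7 of 13 mitochondrial mRNAs (0.46 and -0.99). Proliferation genes were lower in both, with medians of -0.25 and -0.74 and 5 of 30 called. The interaction count ranged from 6 to 2089 when 1 library was left out, the highest without replicate 1 of the senescent empty vector, and was 8 with only the 12 libraries compared, none of the 6 genes above among them (all 6 at an unadjusted p below 0.05).

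**Figure D5:**
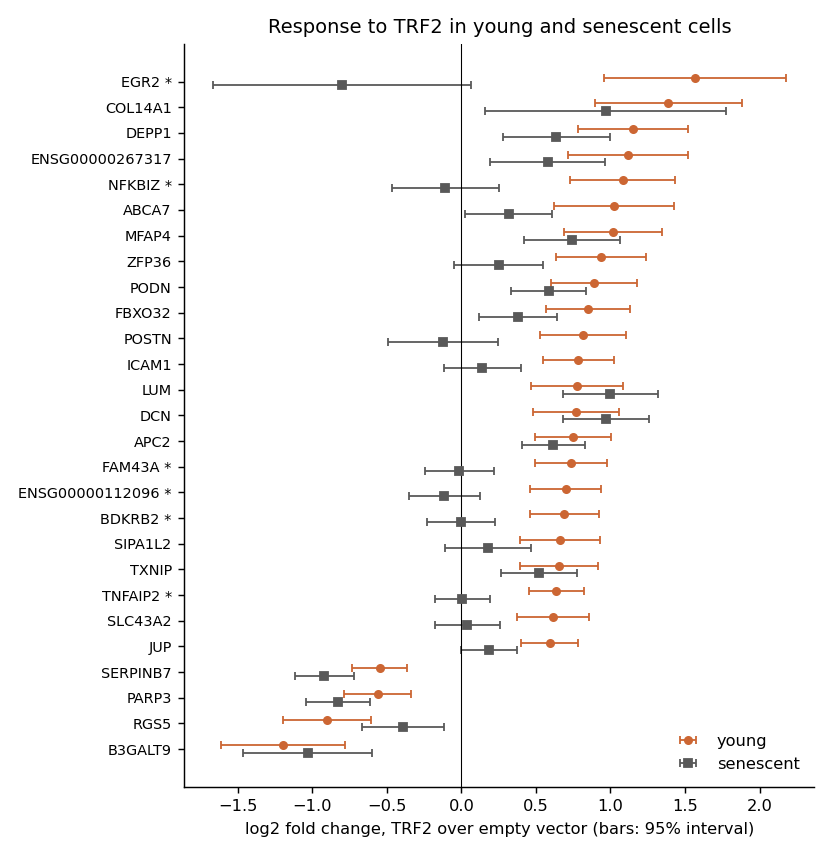
Log2 fold change of TRF2 over empty vector with its 95% interval in young cells (circles) and senescent cells (squares) for the 27 genes called in young cells besides TERF2. Asterisks mark the 6 genes whose responses differed by the interaction term, and the 4 genes called lower lie below 0 in both.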

How the data were processed

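RNA-seq was analysed from 15 libraries of MRC-5 cells in 5 conditions with 3 replicates each. The authors trimmed reads with Trimmomatic, aligned them with STAR to GRCh38 and deposited raw counts per gene in 1 table. The annotation release and the strand column were not given in the sources used here. Genes were annotated here with GENCODE 44. The study calls replicates of its young and senescent cells biological. The labels do not say at which step the replicates of each group were separated, so p-values measure only the spread between these samples.

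Counts were normalized by TMM and tested with edgeR 4.0.16 (R 4.3.3) by the quasi-likelihood F-test, after filterByExpr with default settings, in a model of all 15 libraries with 1 term per condition. This left 15799 of 57272 genes, and a Benjamini-Hochberg adjusted p below 0.05 was the threshold, with no limit on fold change. Standard errors were taken as the absolute log2 fold change over the square root of F. Totals ran from 26725885 to 43116046 counts per library. Of the genes in the table, 324 have identifiers absent from GENCODE 44.

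Genes named were TERF2, all genes called, the 3 nearest the threshold on each side, the largest differences among genes with a mean of at least 100 normalized counts, list members called or with the smallest p, and the neighbours of TERF2 within 500 kb. EGR1, FOS, NR4A1, IL6, CXCL8, IFIT3, IFITM1, IFI6, MCM7, RRM2, CDK1, MKI67, COL3A1 and GDF15 were chosen after their values were seen. A few genes that this rule would name are not reported here. The members and lists were chosen with earlier results of these data known. Same-numbered libraries of the 2 young groups did not deviate together (correlations 0.0018, -0.0071 and 0.052), so the numbers were not used to pair them. Alternatives were DESeq2 1.42.0, its size factors, no filter, offsets for GC content and length, a robust spread, coding genes and pseudogenes only, a limit of 0.58 on log2 fold change, fewer libraries, a replicate block and leaving out each replicate. Promoters came from RefSeq on GRCh38.p14.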

Additional observations from a re-analysis of the deposited data

Results flagged for a closer look

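For 19 of the genes named above, the response to TRF2 in senescent cells differed from that in young cells by edgeR's interaction term (adjusted p 0.013 to 0.040 in the model of 15 libraries). Differences are given as senescent minus young on the log2 scale. Of the genes called in young cells they were -2.37 for EGR2, -1.19 for NFKBIZ, -0.81 for ENSG00000112096, -0.75 for FAM43A, -0.69 for BDKRB2 and -0.63 for TNFAIP2. Interferon-stimulated genes gave -2.11 for IFI6, -1.38 for IFIT2 and -1.19 for IFIT3. In these 3 the young value was positive and the senescent value negative.

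Secretory and stress genes gave -3.88 for CXCL8, -1.41 for GDF15, a cytokine of stressed cells, -1.26 for IL6, -0.72 for PLAT and -0.68 for SERPINE2. CXCL8 had log2 fold changes of 0.89 in young and -2.99 in senescent cells, the widest difference of the 19. Early response genes gave -1.33 for NR4A1, a nuclear receptor, and -0.87 for ATF3, a stress transcription factor. The mitochondrial genes MT-ND5 and MT-CYB gave -1.60 and -1.41, and the mitochondrial share of counts varied between replicates of 1 group. CDK1 was lower in both settings and gave -1.002. All 19 differences were negative, and these genes were named largely by their young response, which enters the difference.

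The calls depended on the libraries in the model. With only the 12 libraries compared, IFIT3 and IFIT2 stayed past the threshold (adjusted p = 0.0497 for each) and the other 17 did not, and with the replicate number as a block in those 12 edgeR called 0 of the 19, although all 19 had an unadjusted p below 0.05. With all 15 libraries the block lost IL6, and offsets for GC content and length lost FAM43A and TNFAIP2. With 1 of the 12 libraries left out of the model of 15, between 0 and 19 were called, 0 without replicate 2 of the young empty vector or replicate 1 of senescent TRF2 (19 at an unadjusted p below 0.05 in both). IFIT3 was called in 9 of 12 fits, IFIT2 and CDK1 in 8, and IL6 and NR4A1 in 2, and the sign of the difference held in all of these fits for all 19 genes. Senescent TRF2 cells were harvested at a later population doubling than senescent empty vector cells. The vector and this difference cannot be told apart, nor can senescence and the longer TRF2 expression of the senescent cells.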

How the results depend on the processing

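TERF2 kept its direction and its call under every alternative, with log2 fold changes of 2.54 to 3.24 when 1 library was left out. The numbers of genes called did not hold. Against 24 higher, 4 lower and 179 by the interaction, they were 225, 31 and 955 with no filter on low counts, 44, 26 and 414 with offsets for GC content and length, 112, 79 and 565 with DESeq2's Wald test, and 296, 178 and 8 with only the libraries compared. With only the 9 young libraries 378 were higher and 346 lower, and DESeq2's Wald test on those gave 489 and 454. A limit of 0.58 on the log2 fold change left 2 lower. With 1 of the 6 young libraries compared left out of the model of 15, between 1 and 16 were higher and 0 to 2 lower (414 to 624 lower at an unadjusted p below 0.05 where none was called). Leaving out replicate 3 of the senescent empty vector, chosen after seeing the data and the 1 senescent library left out for these counts, gave 182 and 138. With 1 of the 12 libraries compared left out, the interaction ranged from 6 to 2089. With 1 of the 6 compared left out of the 9 young libraries, also chosen after seeing the data, 166 to 459 were higher and 69 to 307 lower. DESeq2's size factors in edgeR, a robust spread and coding genes and pseudogenes only moved no count by over 1.5 times. None of the 27 genes called besides TERF2 changed sign under these alternatives, and of their values 493 stayed past the threshold and 153 missed it, most with a library left out. With a library left out, TERF1 ranged from -0.036 to 0.072 and MKI67 from -0.39 to 0.37, neither called with 15 libraries. The cause of these changes was not tested.

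The replicate number as a block in the model of 15 libraries gave 22 higher, 4 lower and 184 by the interaction, and with only the libraries compared 356, 196 and 0 (2093 at an unadjusted p below 0.05, while DESeq2 was run without the block). The labels do not say whether the numbers pair the libraries, and the correlations of same-numbered libraries given above do not settle it.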
